A study of Mus musculus with 6 samples.

Results

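The genes described here are 38 transcripts known from astrocytes and from radial glia, the neural stem cells that line the embryonic ventricle. They were chosen by symbol from a given list, and all 38 were found among the 20040 entries of the expression table. Astrocytes clear glutamate and potassium from around synapses, supply neurons with metabolites and lipids, and cover blood vessels with endfeet. Radial glia span the wall of the embryonic cortex, divide to give neurons and later turn to making astrocytes, so both cell types share many transcripts. Vimentin and nestin fill the fibres of radial glia and immature astrocytes, while GFAP is the filament protein that rises as astrocytes mature or react to injury.

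mRNA was sequenced from cortical cells of C57BL/6 mouse embryos at embryonic day 18, grown as primary neurons and labelled as neurons. There were 2 groups, wild type (WT, n = 3) and KDM6B knockout (KO, n = 3). KDM6B is an enzyme that removes methyl groups from lysine 27 of histone H3, a mark of silenced genes. Neither the allele, the deleted exons, any Cre driver, the days in culture, the embryos per sample nor whether replicates were separate cultures is given in the sources used here. The p-values can therefore speak only for the spread among these 6 libraries, and part of it may be technical. Values are TPM, a unit in which reads are divided by gene length and every library adds up to 1000000. Genes whose mean reached 0.5 TPM were compared between KO and WT with limma on log2(TPM + 0.5), and called at a Benjamini-Hochberg adjusted p below 0.05 over all 14983 genes tested. Fold changes on that scale understate the change of low genes. The text also gives the plain ratio of group means as a fold.

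The smallest whole counts that fit the values and whole gene lengths added up to 19761597 to 23503508 per library. Kdm6b had 30.9, 30.3 and 30.7 TPM in WT, against 11.2, 11.1 and 12.0 TPM in KO, 37.3% of the WT mean (log2 fold change -1.39 ± 0.05 SE, limma adjusted p = 1.1e-05). Kdm6b is summed over the whole gene, so transcripts that lack a deleted part are included. Transcripts of the sex chromosomes separated the groups too. The Y-linked Ddx3y, Eif2s3y, Kdm5d and Uty lay between 7.53 and 43.8 TPM in WT and between 0 and 0.472 TPM in KO, while Xist lay between 70.8 and 77.7 TPM in WT and between 224 and 241 TPM in KO. The mix of male and female embryos and the genotype therefore cannot be told apart. None of the 38 genes lies on chromosome X or Y. WT replicate 3 stood apart in the ribosomal RNA precursor Rn45s, with 6990.2 TPM against 3750 to 4821 TPM in the other libraries. With it, 7 of the 38 genes below were called higher and 5 lower, and without it 6 and 5.

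All 38 genes passed the filter on low values, and the defining astrocyte markers were present in every library of these cultures. Summed over the 38 genes, the level was 14959, 14707 and 15025 TPM in WT, against 15633, 16156 and 15692 TPM in KO. The groups did not overlap, and the KO mean was 1.06-fold the WT mean, 1.58% of all transcripts against 1.49%. Abundant genes weigh most in such a sum, and the largest rises in TPM were those of Aldoc, Fabp7 and Apoe. The log2 fold change was positive for 22 of the 38 genes and negative for 16. In such bulk samples, a changed number of cells of a type and a changed RNA level per cell cannot be told apart. Single levels ran from Fabp7, at 2509 TPM in WT, down to Gjb6, at 0.681 TPM.

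Of the 38 genes, 12 passed the test, where 10.9% of all tested genes did. The share was larger among abundant genes: among those that averaged 100 TPM or more it was 17.4% of 2234, beside 10 of the 22 astrocyte and radial glia genes in that class. The genes that rose were Aldoc, Ptprz1, Apoe, Slc1a3, Fabp7, Bcan and Glul, 7 genes where 4.15% of all tested genes rose. Those that fell were Tnc, Nes, Vim, Aldh1l1 and Clu, 5 genes where 6.74% of all tested genes fell. In 25 of the 38 the 3 KO libraries lay all on one side of the 3 WT libraries, as did 31.7% of all tested genes. The median log2 fold change was 0.04 for the 38 genes and -0.02 for all tested genes. Genes of the set thus moved in both directions, and the remaining 26 are given below as values. Fewer of the 38 genes were called when 1 library was left out. The number that rose was 6 without WT replicate 3 and 4 without any other single one of the 6 libraries. The number that fell was 4 or 5. Calls over all tested genes, in either direction, dropped as well, from 1632 to between 838 and 1118. Whether the 38 genes lost more calls than other genes was not tested.

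**Figure D1:**
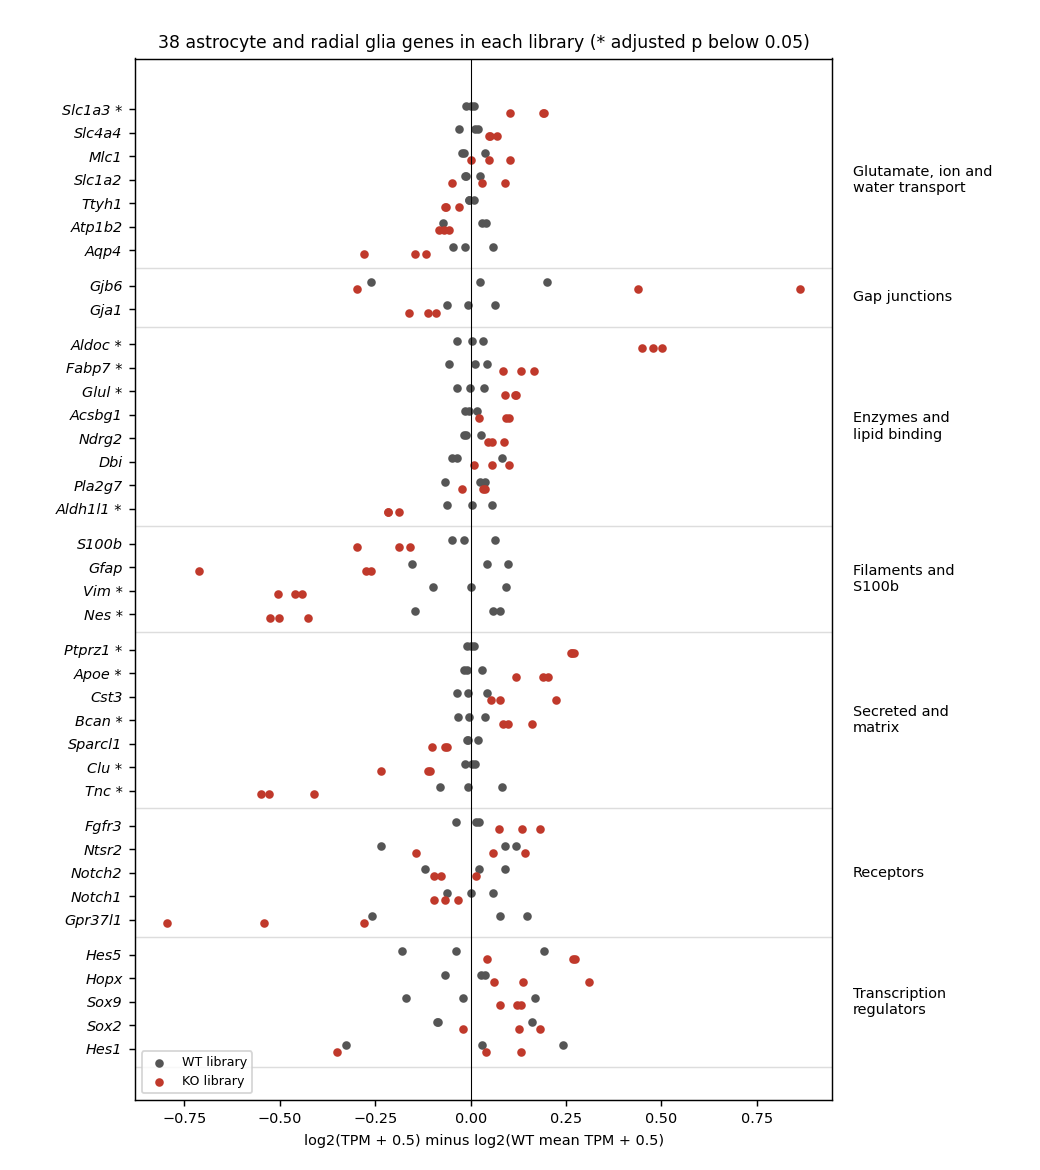
Each point is 1 library, placed at its log2(TPM + 0.5) minus that of the WT mean, for the 38 genes grouped by role, with grey for WT and red for KO. KO points of Vim, Nes and Tnc lie to the left of all WT points, those of Aldoc and Ptprz1 lie to the right, and those of Hes1, Ntsr2 and Notch2 are mixed with WT.

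Of the 3 intermediate filament genes, Vim and Nes fell and Gfap did not pass. Vim encodes vimentin, the main filament protein of radial glia and immature astrocytes, and lies on chromosome 2 at 13573927 to 13582826 (plus strand, GRCm38). It had 440.1, 411 and 469 TPM in WT, against 319.5, 324 and 309.9 TPM in KO. Every KO library was below every WT library. The means were 440.1 ± 29.2 and 317.8 ± 7.23 TPM (SD, n = 3 each), 0.722-fold, with a log2 fold change of -0.47 ± 0.05 (SE, limma adjusted p = 0.0011). Nes encodes nestin, the filament protein by which neural stem cells are commonly recognised (chromosome 3, 87971078 to 87980451, plus strand). It had 47.3, 40.9 and 47.9 TPM in WT, against 31.9, 33.6 and 31.3 TPM in KO, again without overlap. Its mean fell from 45.4 ± 3.84 to 32.3 ± 1.19 TPM (SD, n = 3 each; log2 fold change -0.48 ± 0.06 SE, limma adjusted p = 0.0031).

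Gfap, the filament gene of mature and reactive astrocytes (chromosome 11, 102887336 to 102900912, minus strand), did not pass. Its values were 112.8, 117.3 and 98.4 TPM in WT, against 90.4, 91.3 and 66.6 TPM in KO. The groups did not overlap, but KO replicate 3 lay far below the other KO libraries. On the log2 scale the difference was -0.41 ± 0.12 (SE, limma adjusted p = 0.0698) with all libraries and -0.26 ± 0.07 (adjusted p = 0.0868) without KO replicate 3. Gfap passed in 2 of 17 alternative fits, among them voom on the recovered counts (adjusted p = 9.2e-05), which called 17.5% of all tested genes. In the others it did not pass, at adjusted p of up to 0.1900 with a robust variance trend in limma. Added together, the 3 filament genes had 600.2, 569 and 615 TPM in WT, against 442, 449 and 408 TPM in KO, 0.728-fold. S100b, a calcium-binding protein of astrocytes, had 8.75 to 9.50 TPM in WT and 7.29 to 8.07 TPM in KO and did not pass (adjusted p = 0.1055). The S100b locus overlaps Dip2a on the other strand, and whether the counting used strand is not given in the sources used here.

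**Figure D2:**
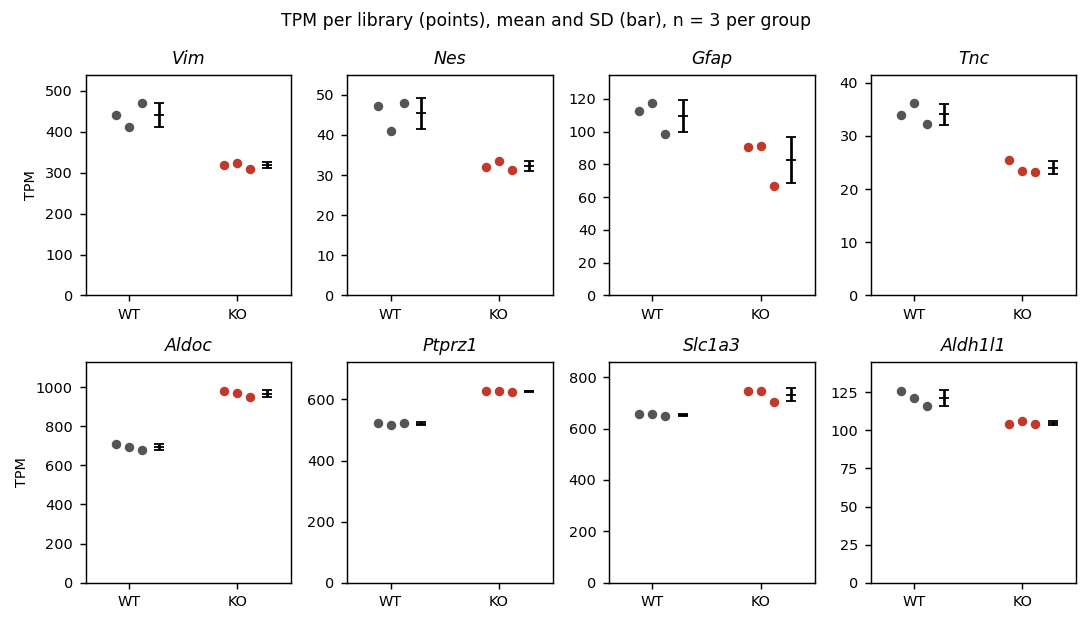
TPM per library for 8 of the genes, with grey points for WT, red points for KO, and a bar at the mean with SD (n = 3 per group). The axes start at 0. Groups are separate in all 8 panels, and in Gfap KO replicate 3, at 66.6 TPM, lies well below the other KO libraries.

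Among genes for secreted and matrix proteins, 3 rose and 2 fell, so this role was split. Tnc encodes tenascin-C, a matrix glycoprotein made by radial glia and young astrocytes (chromosome 4, 63959785 to 64047015, minus strand). It had 34.0, 36.1 and 32.2 TPM in WT, against 25.5, 23.5 and 23.1 TPM in KO. No KO library reached the lowest WT library, and the means were 34.1 ± 1.97 and 24.1 ± 1.29 TPM (SD, n = 3 each; log2 fold change -0.49 ± 0.06 SE, limma adjusted p = 0.0019). Ptprz1 encodes a receptor phosphatase whose secreted form, phosphacan, binds tenascins (chromosome 6, 22875502 to 23052916, plus strand). It had 522, 517 and 524 TPM in WT, against 629, 625.9 and 625.5 TPM in KO. The spread within each group was a small part of the difference, and the means of 521 ± 3.43 and 626.7 ± 1.67 TPM (SD, n = 3 each) gave a rise to 120.3% of WT (log2 fold change 0.27 ± 0.02 SE, limma adjusted p = 0.00026). Tnc and its binding partner Ptprz1 therefore moved in opposite directions.

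Apoe, the main lipid carrier that astrocytes secrete (chromosome 7, 19696109 to 19699188, minus strand), had 1861, 1801 and 1810.4 TPM in WT, against 1981, 2100.2 and 2080.1 TPM in KO. It rose to 112.6% of WT without overlap (log2 fold change 0.17 ± 0.03 SE, limma adjusted p = 0.0085), and lost the call without the variance trend (adjusted p = 0.0551). Bcan encodes brevican, a proteoglycan of the perineuronal matrix (chromosome 3, 87987531 to 88000230, minus strand). It had 223, 217 and 212 TPM in WT, against 230.5, 233 and 243 TPM in KO, a 1.08-fold rise at a limma adjusted p of 0.0471. That call was lost on leaving out any 1 of the 6 libraries, at adjusted p between 0.0665 and 0.1291. It was lost too without the variance trend (0.1360) and with no filter on low values (0.0675). Bcan and Nes are neighbours on chromosome 3, with 7079 bases between them on opposite strands, and moved in opposite directions.

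Clu encodes clusterin, a secreted chaperone (chromosome 14, 65968483 to 65981547, plus strand). Its level was 313, 312 and 308 TPM in WT, against 289, 288 and 264 TPM in KO. It fell to 0.901-fold (log2 fold change -0.15 ± 0.04 SE, limma adjusted p = 0.0341), and the call was lost on leaving out WT replicates 1, 2 or 3 (0.1139, 0.0945 and 0.0746) or KO replicate 2 (0.0564). Clu also lost the call without the variance trend (0.1134), with no filter on low values (0.0565) and after median centring (0.0612). Cst3, the protease inhibitor cystatin C, was at 1.09-fold with an adjusted p of 0.14. Sparcl1, a secreted protein that promotes synapse formation, was at 0.948-fold with an adjusted p of 0.0587. Neither passed, although their groups did not overlap. Voom called both (Cst3 0.0051, Sparcl1 0.0296), and Sparcl1 also passed after quantile normalization (0.0277) and with a robust variance trend (0.0497).

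The enzymes and lipid-binding proteins mostly had higher values in KO, with 3 genes that rose and 1 that fell among 8. Aldoc encodes aldolase C, the glycolytic enzyme of astrocytes, and lies on chromosome 11 at 78322968 to 78327781 (plus strand). Its values were 709.6, 695 and 677 TPM in WT, against 981, 967 and 948 TPM in KO. The groups lay far apart, at 693.7 ± 16.5 and 965.5 ± 16.7 TPM (SD, n = 3 each), 1.39-fold. Its log2 fold change of 0.48 ± 0.03 (SE, limma adjusted p = 7.9e-05) had the smallest p of the 38 genes. Aldh1l1, a folate enzyme widely used as an astrocyte marker (chromosome 6, 90486427 to 90600203, plus strand), went the other way. It had 126, 121 and 116 TPM in WT, against 104.2, 106 and 104.3 TPM in KO, a fall to 0.866-fold (log2 fold change -0.21 ± 0.03 SE, limma adjusted p = 0.0080).

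Fabp7, the brain fatty acid-binding protein of radial glia (chromosome 10, 57784881 to 57788450, plus strand), had 2529, 2410.45 and 2586 TPM in WT, against 2663, 2815 and 2751 TPM in KO. It rose 1.09-fold (log2 fold change 0.13 ± 0.03 SE, limma adjusted p = 0.0454). Leaving out WT replicates 1 or 2 (0.1164 and 0.1288) or KO replicates 1, 2 or 3 (0.0514, 0.1365 and 0.1269) ended the call. The call was also lost without the variance trend (0.1350) and with no filter on low values (0.1087). After quantile normalization the log2 fold change of Fabp7 was 0. That method sets values by rank alone, and a gene that keeps its rank in every library gets a difference of 0 whatever its level. Glul, the glutamine synthetase that turns glutamate into glutamine (chromosome 1, 153899944 to 153909723, plus strand), had 891, 872 and 915 TPM in WT, against 967, 951 and 969.8 TPM in KO. It rose 1.08-fold (log2 fold change 0.11 ± 0.02 SE, limma adjusted p = 0.0272). The call ended on leaving out WT replicates 1 or 2 (0.0943 and 0.0896) or KO replicates 1, 2 or 3 (0.0789, 0.0615 and 0.0934). It also ended without the variance trend (0.1145), with no filter on low values (0.0569) and after quantile normalization (0.0662). The acyl-CoA synthetase Acsbg1, the lipase Pla2g7, the acyl-CoA-binding protein Dbi and Ndrg2, a cytoplasmic protein enriched in astrocytes, lay between 1.01-fold and 1.05-fold, and none passed. Ndrg2 was called with voom (0.0447).

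Of the 7 transport genes, only Slc1a3 passed. Slc1a3 encodes the glutamate transporter GLAST of radial glia and astrocytes (chromosome 15, 8634124 to 8710764, minus strand). It had 658, 655 and 648 TPM in WT, against 745, 747 and 702 TPM in KO, without overlap. It rose 1.12-fold (log2 fold change 0.16 ± 0.03 SE, limma adjusted p = 0.0105), and lost the call without the variance trend (0.0638). Slc1a2, the glutamate transporter GLT-1 that takes over in mature astrocytes, had 357 to 367 TPM in WT and 349 to 384 TPM in KO. These groups overlapped, the KO mean was 101.8% of the WT mean and the adjusted p was 0.7238. The difference between the changes of both transporters was not tested.

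Aqp4, the water channel of astrocyte endfeet, had 93.3 to 100.3 TPM in WT and 79.2 to 88.7 TPM in KO. At 0.882-fold it missed the threshold (log2 fold change -0.18 ± 0.05 SE, limma adjusted p = 0.0517), and was called with voom (0.0014), with a filter at a mean of 2 TPM (0.0408) and with a robust variance trend (0.0361). The bicarbonate cotransporter Slc4a4, the sodium pump subunit Atp1b2, the endfoot membrane protein Mlc1 and the chloride channel family member Ttyh1 lay between 0.953-fold and 1.04-fold and did not pass. Atp1b2 passed, as lower, only when WT replicate 3 was left out (0.0322). Ttyh1 overlaps 2 table entries on the other strand, 9430041J12Rik and D030047H15Rik.

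Neither gap junction gene passed. Gja1, which encodes connexin 43, the main astrocyte connexin, had 142 to 155 TPM in WT and 132 to 139 TPM in KO (0.919-fold, limma adjusted p = 0.0797), and was called with voom (0.0255). Gjb6, which encodes connexin 30 and appears as astrocytes mature, rested on few counts, 8 to 13 in each WT and 8 to 26 in each KO library. At this depth its groups overlapped, at 0.485 to 0.856 TPM and 0.460 to 1.65 TPM, and no difference was detectable (adjusted p = 0.5581).

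No receptor passed. Gpr37l1, a G protein-coupled receptor of astrocytes (chromosome 1, 135160234 to 135167681, minus strand), had 9.77, 7.64 and 10.3 TPM in WT, against 6.19, 5.11 and 7.52 TPM in KO. The highest KO library lay just under the lowest WT library, and the log2 fold change of -0.53 ± 0.15 (SE) had a limma adjusted p of 0.0665. Gpr37l1 was called with voom on the counts (0.0025), which were 119 to 174 in WT and 91 to 112 in KO. Fgfr3, a fibroblast growth factor receptor of radial glia and astrocytes, had 42.0 to 43.8 TPM in WT and 45.4 to 48.9 TPM in KO (1.10-fold, adjusted p = 0.0741), and was called after median centring (0.0423), after quantile normalization (0.0459) and with voom (0.0131). The neurotensin receptor Ntsr2 lay at 16.9 to 21.7 TPM in WT and 18.0 to 22.1 TPM in KO, and its sign changed with the libraries used, to -0.085 without WT replicate 3 and -0.033 without KO replicate 2.

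Notch1 and Notch2, the receptors whose signalling keeps radial glia undifferentiated, lay at 0.955-fold and 0.964-fold with overlapping groups (limma adjusted p = 0.4531 and 0.685). Their target genes Hes1 and Hes5 encode repressors of neuronal differentiation. Hes1 had 7.53 to 11.4 TPM in WT and 7.40 to 10.5 TPM in KO, and Hes5 had 24.1 to 31.3 TPM in WT and 28.2 to 33.2 TPM in KO, so the groups of both overlapped. Hes1 changed sign without WT replicate 1 (0.089), without KO replicate 1 (0.10) and after quantile normalization (0.016), from -0.041. Sox2, a stem cell factor, and Sox9, a factor that starts gliogenesis, had ratios of 1.07 and 1.08 with overlapping groups. Hopx, a homeodomain protein of radial glia, had 20.7 to 22.2 TPM in WT and 22.6 to 27.0 TPM in KO (113.0% of WT, adjusted p = 0.1615). None of the 5 transcription regulators passed.

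**Figure D3:**
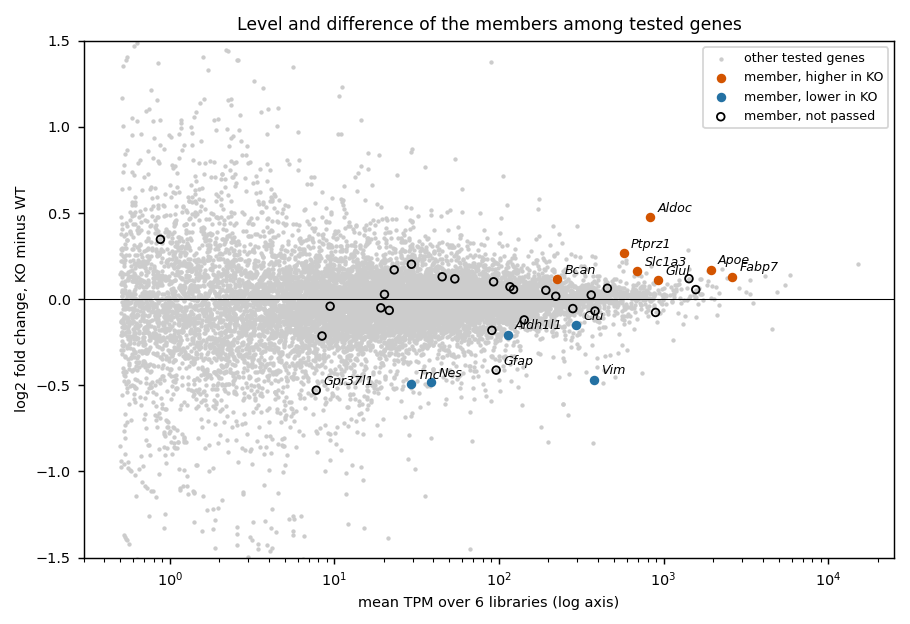
Each grey point is a tested gene, placed by its mean TPM over the 6 libraries (log axis) and its log2 fold change of KO minus WT. Filled circles mark the 38 genes that rose (orange) or fell (blue), open circles those that did not pass, and 91 genes beyond 1.5 on the log2 axis are not drawn. Aldoc, at 0.48, and Vim, at -0.47, lie at the edges of the cloud for their level, while most of the other genes lie near 0.

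RefSeq promoter windows (GRCm38.p6) were at hand for 32 of the 38 genes, as 42 windows of 250 bases before a transcription start. Slc1a3 and Ptprz1 are printed as genes that rose, Tnc as one that fell, and Hes5 as the target of the Notch receptors, at chr15:8710808-8711057 (minus strand), chr6:22875252-22875501 (plus strand), chr4:64047016-64047265 (minus strand) and chr4:154960673-154960922 (plus strand). Each is written 5′ to 3′ on the strand of the gene, and capitals mark letters that match a searched motif.
Slc1a3: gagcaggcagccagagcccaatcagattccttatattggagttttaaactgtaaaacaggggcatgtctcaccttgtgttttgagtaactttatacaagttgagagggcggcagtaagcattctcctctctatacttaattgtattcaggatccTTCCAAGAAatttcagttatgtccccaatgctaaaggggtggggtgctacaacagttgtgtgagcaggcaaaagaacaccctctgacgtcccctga
Ptprz1: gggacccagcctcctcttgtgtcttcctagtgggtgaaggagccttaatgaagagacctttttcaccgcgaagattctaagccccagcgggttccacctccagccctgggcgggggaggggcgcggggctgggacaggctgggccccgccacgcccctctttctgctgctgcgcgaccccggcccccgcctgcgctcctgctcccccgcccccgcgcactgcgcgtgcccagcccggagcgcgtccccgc
Tnc: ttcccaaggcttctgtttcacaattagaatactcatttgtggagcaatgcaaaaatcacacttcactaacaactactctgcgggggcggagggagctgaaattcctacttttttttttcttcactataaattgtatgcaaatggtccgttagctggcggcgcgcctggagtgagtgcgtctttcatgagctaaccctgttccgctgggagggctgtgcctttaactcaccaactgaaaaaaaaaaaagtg
Hes5: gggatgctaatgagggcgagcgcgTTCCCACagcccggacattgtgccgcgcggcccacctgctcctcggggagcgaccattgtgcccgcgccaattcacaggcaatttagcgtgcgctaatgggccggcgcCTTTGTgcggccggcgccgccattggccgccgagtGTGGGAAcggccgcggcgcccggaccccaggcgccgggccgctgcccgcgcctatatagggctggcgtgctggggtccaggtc
Both strands were searched for the RBPJ core GTGGGAA, by which Notch signalling reaches its targets, the STAT palindrome TTCNNNGAA, the SOX core ACAAAG, and the NFI pair, TTGGC followed after 5 bases by GCCAA. No motif has the letters of another within it. Hes5 held the RBPJ core at 226 and 83 bases before the start, once on each strand, with a SOX core at 118 bases. Slc1a3 held the STAT palindrome 96 bases before the start, and neither Ptprz1 nor the printed window of Tnc held a full match. A second Tnc window, at chr4:64046937-64047186, overlaps the printed one and held the RBPJ core 82 bases before its own start. The printed window ends inside this core, after its first letters gtg. Over the 42 windows, the RBPJ core was in 3, the STAT palindrome in 5, the SOX core in 4 and the NFI pair in 0. Of all 32851 windows in the table, 5.415% held the RBPJ core, 7.02% the STAT palindrome, 16.462% the SOX core and 0.037% the NFI pair. A match is a run of letters and not a measured binding site.

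Other astrocyte genes were also divided. The counts for this list and all lists below stand beside 4.15% of all tested genes that rose and 6.74% that fell. Of 55 tested from a list of 56, 11 rose and 5 fell, with a median log2 fold change of 0.00. Mfge8, a secreted bridge protein for phagocytosis, rose 1.35-fold, from 254 ± 5.05 to 342 ± 10.4 TPM (SD, n = 3 each; limma adjusted p = 0.00024). Ppap2b, a lipid phosphatase also called Plpp3, rose 1.26-fold (0.00026). Sparc, a secreted matrix protein that opposes its relative Sparcl1 at synapses, had 252, 233 and 274 TPM in WT, against 139, 149.5 and 137 TPM in KO, a fall to 56.1% (0.00027). The zinc transporter Slc39a12 fell to 77.2% (0.0027). Summed, the list had 3885 to 4022 TPM in WT and 3938 to 4005 TPM in KO, so the groups overlapped.

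Of 32 tested radial glia and progenitor genes, 9 rose and 4 fell, with a median of 0.07. Fam107a, an actin-associated protein of outer radial glia, had 70.7, 70.3 and 69.7 TPM in WT, against 46.9, 46.2 and 48.6 TPM in KO, a fall to 67.2% (limma adjusted p = 8.2e-05). Sfrp1, a secreted Wnt modulator, had 48.1, 46.6 and 45.0 TPM in WT, against 72.8, 75.9 and 69.9 TPM in KO, a 1.56-fold rise (0.0002). Emx2, a patterning factor of the dorsal cortex, rose 1.28-fold (0.0051), and Mfge8 is in this list too. Among 22 gliogenic regulators, 2 rose and 2 fell. Zeb2 fell to 79.2% (0.0019), and Atf3, a stress-induced factor, rose from 0.725 ± 0.122 to 2.06 ± 0.389 TPM (SD, n = 3 each) on 8 to 34 counts per library (0.0125). The call of Atf3 was lost without KO replicate 2 (0.0537) or KO replicate 3 (0.0528). Lhx2, 1.11-fold higher (0.0257), and Id3, at 69.7% (0.0449), each failed the threshold in 5 of the 6 leave-one-out fits, with values of up to 0.0872 and 0.1357. Lhx2 and Id3 are also counted among the radial glia and progenitor genes above.

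Of 38 other Notch pathway genes tested, 1 rose and 4 fell, with a median of -0.01. At 13.2%, the share called was near the 10.9% of all tested genes. Nrarp, the gene that rose, was 1.18-fold higher (limma adjusted p = 0.0351). Fbxw7, which marks the active Notch fragment for breakdown, fell to 81.4% (limma adjusted p = 0.00035). Dlk1, a non-canonical ligand and imprinted gene, had 6.12, 5.14 and 6.40 TPM in WT, against 1.91, 2.155 and 1.57 TPM in KO, a fall to 31.9% (0.001). Lfng, a glycosyltransferase that tunes Notch to its ligands, fell to 80.9% (0.0117; 0.0511 without WT replicate 1). Neurl1a, at 88.5% (0.0231), did not pass on leaving out WT replicates 1 or 2 (0.0826 and 0.0772) or KO replicates 1 or 2 (0.0712 and 0.0792).

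Of 25 tested genes, from a list of 35 that rise in reactive astrocytes, 0 rose and 5 fell, where 6.74% of all tested genes fell, with a median log2 fold change of -0.22 beside -0.02 for all tested genes. With limma at an unadjusted p below 0.05, 1 was higher and 11 lower, beside 14 higher and 12 lower of the 55 other astrocyte genes. The share of all tested genes at that threshold was not counted in either direction. The other astrocyte list does not replace it, so no excess of lower genes can be read from these counts. Voom called 2 higher and 11 lower. Of all tested genes it called 17.5% in either direction, and more of these were lower than higher. S1pr3, a sphingosine phosphate receptor, had 17.6, 15.3 and 19.4 TPM in WT, against 11.1, 11.9 and 9.45 TPM in KO, a fall to 62.0% (limma adjusted p = 0.0078). Emp1 (59.2%, 0.0272), Ggta1 (66.7%, 0.0321) and S100a10 (87.5%, 0.0346) fell as well, but lost the call in 4, 6 and 5 of the 6 fits without 1 library, at adjusted p of up to 0.0908, 0.113 and 0.1201. Vim and Gfap, which also rise in reactive astrocytes, are counted among the 38 and not here.

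**Figure D4:**
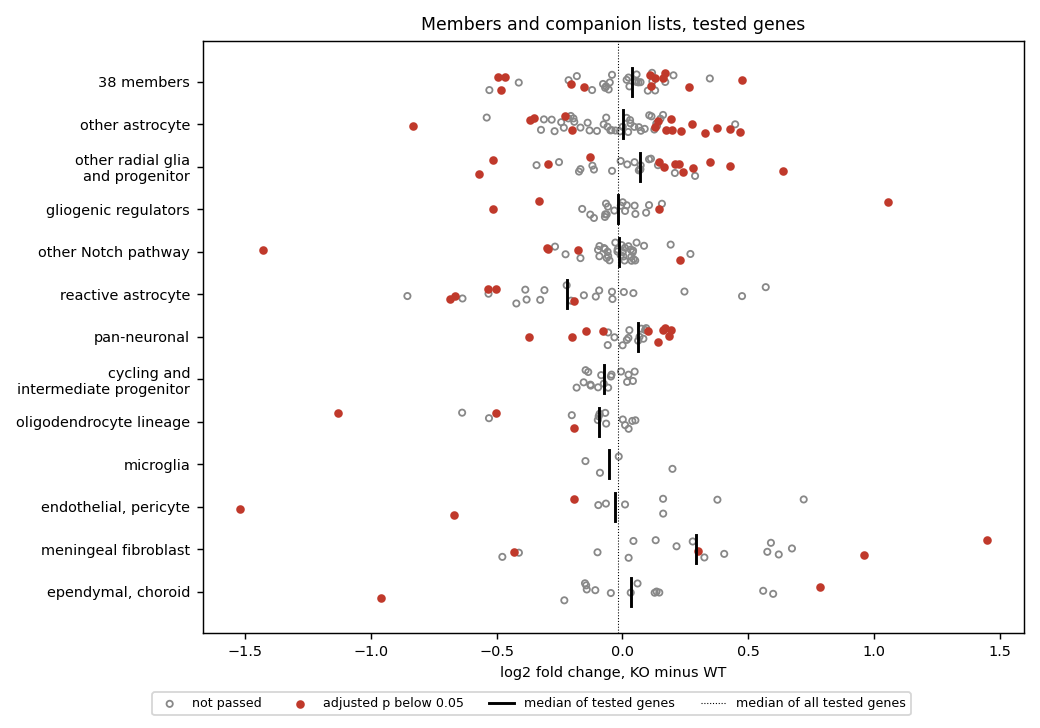
Log2 fold change of KO minus WT for the tested genes of each list, with red points for genes that passed, open points for those that did not, a black bar at the median of the list and a dotted line at the median of all tested genes. The reactive astrocyte genes have a median of -0.22 and the meningeal fibroblast genes one of 0.29, while the 38 genes have a median of 0.04.

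Some markers of other cells that the culture could hold differed between the groups as well, and their part in the differences of the 38 genes was not tested. Of 23 pan-neuronal genes 6 rose and 4 fell, and their sum was 14657 to 14949 TPM in WT and 15245 to 15484 TPM in KO. Ina, a neuronal filament protein, rose 1.14-fold (limma adjusted p = 0.0026), while Rbfox3, the source of the NeuN antigen, fell to 87.0% (0.0078). The X-linked Dcx rose 1.14-fold (0.0118; 0.0549 without WT replicate 1). Tubb3 rose 1.12-fold (0.0173), but did not pass on leaving out WT replicate 2 (0.0595) or KO replicates 2 or 3 (0.0647 and 0.0705).

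Of 18 tested meningeal fibroblast genes, 3 rose and 1 fell, and their sum was 254.6 to 269.8 TPM in WT and 273 to 313 TPM in KO. The proteoglycan gene Lum rose from 0.941 ± 0.0389 to 3.45 ± 0.475 TPM (SD, n = 3 each; limma adjusted p = 0.0013), on 14 counts in each WT library and 49 to 54 in each KO library. Col1a1 rose 2.13-fold (0.0137; 0.0506 without WT replicate 3) and Dcn 1.24-fold (0.0344). Dcn lost the call in 5 of 6 fits without 1 library, at adjusted p of up to 0.118. Col6a1 fell to 73.2% (0.0117; 0.0558 without WT replicate 1).

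Of 16 tested oligodendrocyte lineage genes, 0 rose and 3 fell, among them the myelin protein gene Mal to 38.7% (limma adjusted p = 0.0030) and Cspg4 to 87.3% (0.0258). For Cspg4, 6 of the 6 leave-one-out fits gave no call, with adjusted p of up to 0.0872. Of 10 endothelial and pericyte genes, 3 fell, and of these Slco1a4, a transporter of the blood-brain barrier, had 10.6, 11.4 and 13.4 TPM in WT, against 3.54, 4.70 and 3.205 TPM in KO (32.4%, 0.00091). The receptor gene Kdr fell to 60.9% (0.0058), and Cspg4 is shared with the oligodendrocyte list. The list sums overlapped between groups, at 904 to 979 TPM in WT and 897 to 945 TPM in KO for the oligodendrocyte list and at 123 to 125 and 109.7 to 126 TPM for the endothelial list.

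Microglia markers were nearly absent. Of 20, 16 had a mean under 0.5 TPM, and of the 4 tested none was called with limma or voom, with 1 at an unadjusted p below 0.05, Sall1 (13.5 TPM in KO, 90.0% of WT, limma adjusted p = 0.1416). Of 17 cycling and intermediate progenitor genes, limma called 0, voom called 1 and 2 had an unadjusted p below 0.05, namely Ccnb1 at 90.9% (adjusted p = 0.1622) and Top2a at 91.7% (0.1778). Their sum was 396 to 409 TPM in WT and 374 to 393 TPM in KO. For both lists, the share of all tested genes at an unadjusted p below 0.05 was not counted. Voom called 17.5% of all tested genes. Of 15 ependymal and choroid plexus genes, Sostdc1 rose 1.81-fold (0.0099) and Pifo fell to 46.9% (0.0259). These calls were 13.3% of that list, near the 10.9% of all tested genes. Pifo rested on 10 to 41 counts per library and lost the call in 5 of 6 fits without 1 library, at adjusted p of up to 0.0893.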

How the data were processed

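mRNA libraries were made from DNase-treated total RNA with a KAPA mRNA HyperPrep kit, per the labels' protocols. The submitters' processing notes name the build mm10 and the tools TopHat, featureCounts, edgeR, Picard 1.127, FastQC 0.11.2 and bcl2fastq 2.17, without their roles. Which annotation, strand setting and scaling were used is not given in the sources used here. Its values are TPM as deposited, which the authors' table name calls FPKM: every column sums to 1000000, and FPKM need not. TPM is relative, so abundant genes that rise lower all others. A spreadsheet had turned 27 names into dates, and these were left unnamed.

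Whole counts were recovered from the ratios between libraries and whole gene lengths for all 18287 entries above 0 in at least 2 libraries (100.0%, within 0.001 counts), as the smallest that fit, so a larger common multiple is possible. They served to state depth and for 1 alternative test. For a gene of 1 kb, 1 count was worth 0.126 to 0.151 TPM. Library pairs within groups differed by 1.26 to 1.98 times the counting noise (median chi-square over its expectation), so none was dropped as a copy.

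KO was compared with WT by limma 3.58.1 in R 4.3.3 on log2(TPM + 0.5), with a variance trend and no covariates, two-sided, over the 14983 genes whose mean reached 0.5 TPM, with Benjamini-Hochberg adjustment and a threshold of 0.05. The script was tested on simulated data. The share of calls in the higher direction was 38.1% on the deposited scale and 53.1% after median centring. The 38 genes, the 12 other lists and the rules were chosen with earlier results of these data known, so no list was tested as such. All 38 genes are named, with Kdm6b and, in each other list, the 4 called genes with the smallest p, or 2 genes as values where none was called. Some genes that this rule picks are left out of the text. Nrarp, sex-linked and ribosomal transcripts, and library extremes were named after their values were seen. Plpp3 was matched as Ppap2b through a RefSeq synonym. Positions are from GENCODE M21 on GRCm38, the build mm10. Alternatives covered pseudocount, filter, scaling, variance model, the replicate number as a block, voom on counts and leaving out each library.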

Additional observations from a re-analysis of the deposited data

How the results depend on the processing

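Across 17 alternatives, 6 of the 12 called genes (Aldoc, Vim, Nes, Tnc, Ptprz1 and Aldh1l1) passed in every one, and 17 of the 26 others passed in none. Of the 38 genes, 7 were higher and 5 lower as reported. The higher count was 4 with no filter on low values, 2 without the variance trend, 3 with the replicate block, and 4 to 6 on leaving out 1 library. Voom on the recovered counts gave 10 higher and 10 lower. All tested genes gave 1632 calls, 1064 without the trend, 945 with the block, 2617 with voom and 838 to 1118 without 1 library, under 1632 by more than 1.5 times for each library but WT replicate 3. For the other lists this held without WT replicate 1 and without each KO replicate. Calls over the other lists numbered 31 without the trend, 36 with the block, 104 with voom and 32 to 45 without 1 library, against 61. The median log2 fold change of the 38 genes was 0.065 after median centring and 0.02 to 0.06 without 1 library. Signs turned for Ntsr2 without WT replicate 3 (-0.085) or KO replicate 2 (-0.033), over a range without 1 library of -0.085 to 0.11, for Hes1 after quantile normalization (0.016) and without WT replicate 1 (0.089) or KO replicate 1 (0.10), range -0.20 to 0.10, for Pla2g7 without WT replicate 2, range -0.016 to 0.037, and for Slc1a2 without KO replicate 1, range -0.0088 to 0.060. The cause was not tested. Replicate numbers did not pair the libraries: same-numbered deviations correlated at 0.008, -0.051 and 0.011, and WT replicate 1 correlated best with KO replicate 2 (0.027). The block also called Gfap (0.0151) and Gpr37l1 (0.0248), and ended the call of Apoe (0.0504). Depth limits Gjb6 most, with 8 to 26 counts.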

Other observations

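Among the WT libraries, WT replicate 1 held the lowest value for 2 of the 38 astrocyte and radial glia genes, beside 28.5% of all tested genes. WT replicates 2 and 3 held it for 18 each, beside 34.5% and 36.9% of all tested genes. Among the KO libraries, KO replicate 2 held the highest value for 17 of the 38 genes, beside 29.8% of all tested genes. Genes of a library are not independent, and no test was made of these counts.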
